A study of Mus musculus with 11 samples.

Results

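The stathmins are small phosphoproteins that bind tubulin. They hold free tubulin dimers and promote the shrinkage of microtubules, and phosphorylation releases the tubulin and switches them off. Stmn1 (stathmin, also oncoprotein 18) is cytosolic and is found in dividing progenitors as well as in young neurons, whereas Stmn2 (SCG10), Stmn3 (SCLIP) and Stmn4 (RB3) are neuronal and carry an additional N-terminal stretch that anchors them to membranes of the Golgi and of growth cones. In the main olfactory epithelium (MOE), where the olfactory sensory neurons (OSNs) lie, Stmn2 serves as a marker of immature neurons.

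The 4 genes were followed in whole MOE dissected from newborn mice (postnatal day 0) of the BALB/c strain. The 5 wild type preparations were all from males, and of the 6 preparations with a conventional Bcl11b knockout (KO) 4 were from males and 2, KO 3 and KO 6, from females. The parents were heterozygous for the KO, and each preparation of RNA from 1 dissected MOE was measured on 1 Affymetrix mouse expression array. The KO removes Bcl11b, a zinc finger transcription factor, from every tissue of the animal, and the labels give no litter or day of dissection. Members were the probe sets that the array annotation assigns to exactly 1 of the symbols Stmn1, Stmn2, Stmn3 and Stmn4. This gave 7 probe sets for the 4 genes, out of 18193 genes with such a probe set, with 2 probe sets each for Stmn1, Stmn2 and Stmn3 and 1 for Stmn4. All 7 had a mean signal of at least 20 and entered the fit, and 0 probe sets named a stathmin together with another gene.

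Values are signals on a linear scale on which the GAPDH probe set reads 10000 on every array, or log2(signal + 16) where a difference is given. A probe set's signal depends on how well its probes bind, so signals of different stathmins are not set against each other. The family was chosen by the measured difference between KO and wild type signals of its members, with Stmn4 apart from its paralogues, and that difference is therefore given for its members as a description with a standard error and without a p-value. The arrays matched their labels: the brightest Bcl11b probe set read 2694.3 to 4122.7 in wild type against 560.5 to 1249.8 in KO, a log2 difference of -1.88 ± 0.17 (SE; limma, adjusted p = 1.20e-05). The 3'/5' ratio of GAPDH probe sets ran from 1.88 to 2.27 in wild type and from 1.82 to 2.70 in KO, with the highest ratios on KO 3 and KO 2. RNA integrity and labelling cannot be told apart in this ratio.

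Stmn4 was the stathmin whose signals stood apart between the genotypes. Its signal was 252, 422.3, 564.8, 459 and 531.5 on wild type arrays 1 to 5, and 914.5 at the lowest, 1259 at the median and 1617.9 at the highest on the 6 KO arrays. Every KO array thus lay above every wild type array, and the lowest KO array (KO 3) was 1.62 times the highest wild type array (wild type 3). The wild type mean was 446 ± 122 (SD, n = 5). The KO mean was 1253 ± 286 (SD, n = 6), or 281% of it. The log2 difference was 1.48 ± 0.20 (SE). Of the 33662 probe sets tested, 40 had a larger positive estimate, so that Stmn4 stood at place 41. More cells that express Stmn4 and more Stmn4 RNA per cell cannot be told apart in whole tissue. Stmn4 has 1 probe set on the array, so no other probe set bears on this value.

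Stmn1 lay at much the same level in both genotypes. Its brighter probe set (1415849_s_at) read 10892.8, 11882.2, 11067.1, 10550.8 and 10797.6 on wild type arrays 1 to 5. On the KO arrays it ran from 10140.7 through a median of 11474 to 12580.8, so that the groups overlapped, with KO 3 below and KO 6 above all wild type arrays. The group means were 11038 ± 507 (SD, n = 5) and 11432 ± 832 (SD, n = 6), and the log2 difference was 0.049 ± 0.068 (SE), a sign that turned under each of the 3 other scalings, to -0.0037 on array medians, -0.016 after quantile normalization and -0.14 on spiked hybridization controls. The spread among arrays on this probe set was the smallest of the 7 stathmin probe sets, at 4.60% of the mean in wild type and 7.27% in KO. The other Stmn1 probe set had 14.5% and 21.7%. The dimmer probe set (1448113_at) also overlapped between the groups, from 630.1 to 882.2 in wild type and from 568.9 to 946.2 in KO, with a log2 difference of 0.0034 ± 0.16. The suffix of the brighter probe set marks probes that can bind more than 1 transcript, and the gene table used here lists 2 Stmn1 pseudogenes; which copies contribute to the signal was not analysed here.

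Stmn2, the marker of immature neurons, also overlapped between the genotypes. On its brighter probe set (1423280_at) wild type arrays 1 to 5 read 3846.4, 4809.3, 4829.4, 4155.9 and 4158.3. The KO arrays ran from 3120.5 through a median of 4684 to 5084.9. KO 3 was the only KO array below the wild type range, while 3 KO arrays lay above it. The means were 4360 ± 438 (SD, n = 5) and 4502 ± 739 (SD, n = 6), with a log2 difference of 0.033 ± 0.12 (SE), which was -0.019 on array medians, -0.044 after quantile normalization, -0.16 on the hybridization controls and 0.13 without KO 3. The dimmer probe set (1423281_at) gave a log2 difference of 0.20 ± 0.14, from 1263 ± 186 (SD, n = 5) to 1463 ± 252 (SD, n = 6), and KO 3 was not the lowest array on it.

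Stmn3 had small negative estimates on both of its probe sets. The brighter (1435113_x_at) read 6143.8, 7698.1, 7423.4, 6618.2 and 6572.5 on wild type arrays 1 to 5. On the KO arrays it ran from 5671.8 through a median of 6490 to 7598, with KO 2 below the wild type range and 0 KO arrays above it. The log2 difference was -0.062 ± 0.088 (SE), and with the dimmer probe set (1460181_at) it was -0.059 ± 0.15, where wild type lay between 1776.1 and 2505.3 and KO between 1394.5 and 2545.3. The estimate of the brighter probe set was below 0 in all alternatives tried and largest in size, at -0.25, after scaling on the hybridization controls. The suffix of the brighter probe set, too, marks probes that can bind other transcripts, and their part in its signal was not analysed here.

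**Figure D1:**
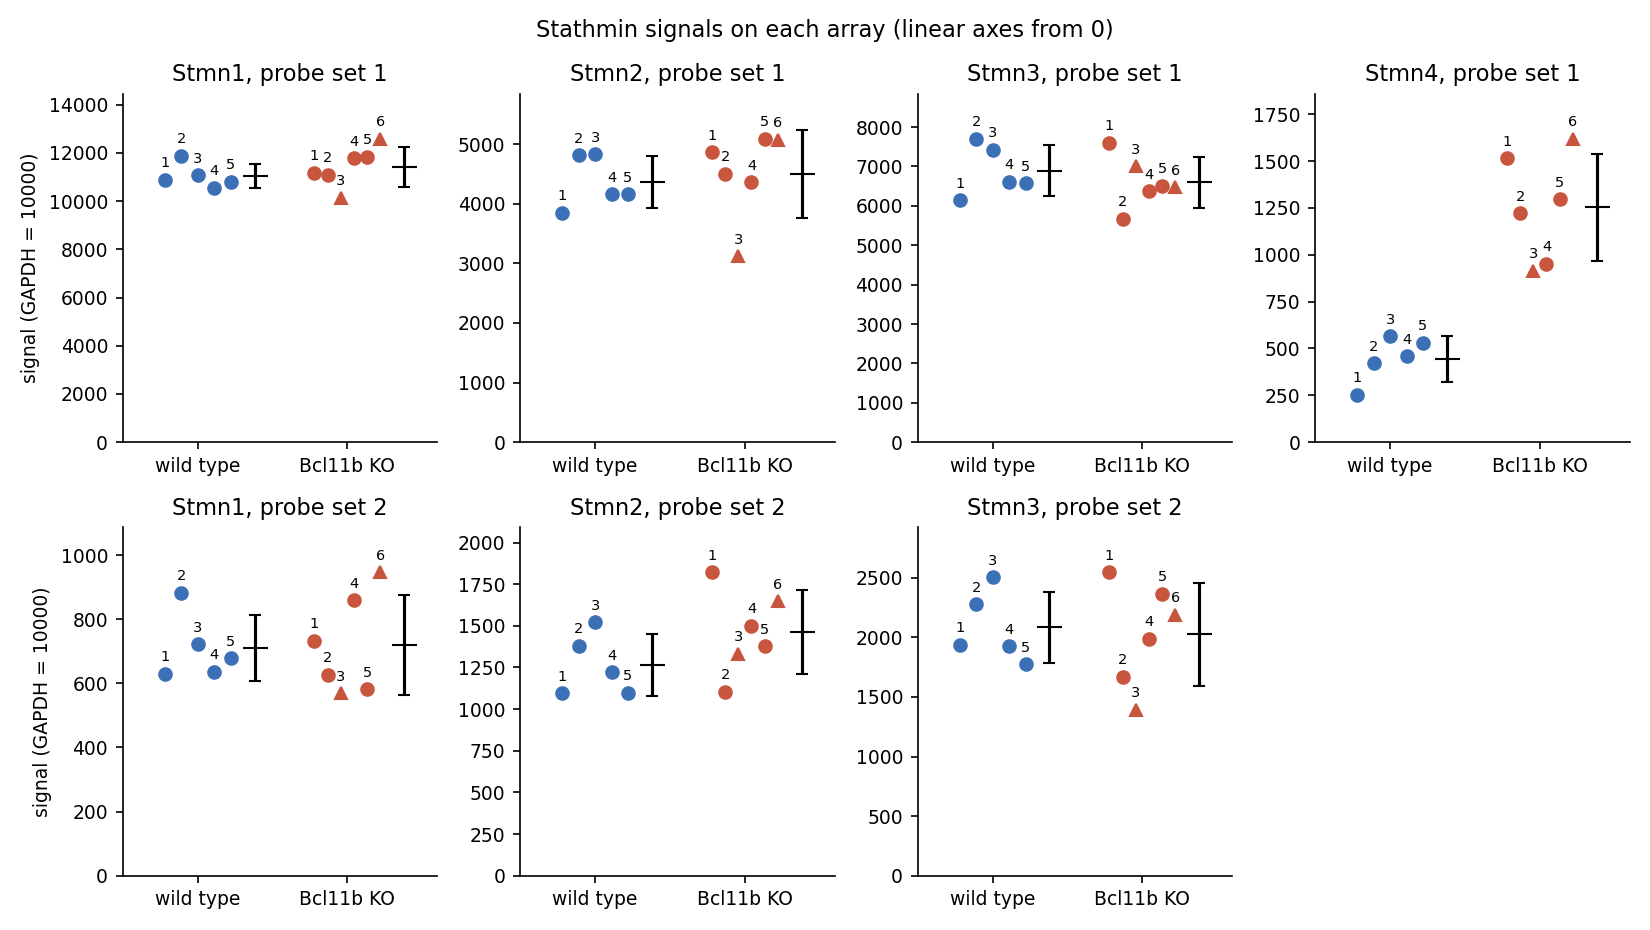
Signal of each stathmin probe set (linear axes from 0, GAPDH set to 10000) on the 5 wild type and 6 Bcl11b KO arrays; numbers are replicates, triangles are females, and black bars give the mean and SD. For Stmn4 all KO arrays (914.5 to 1617.9) lie above all wild type arrays (252 to 564.8), and for the other genes the groups overlap.

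Of the 7 stathmin probe sets 1, that of Stmn4, was among those called in the fit across all probe sets (limma, adjusted p under 0.05), where 0.455% of the 33662 probe sets tested were called in either direction 0.244% were higher and 0.211% lower in KO. The groups did not overlap on 1 of the 7, against 1.29% of all probe sets. Since the contrast was known when the family was chosen, nothing is read from these shares. Of the 7 estimates 5 were above 0, where 60.4% of all probe sets had an estimate above 0 and the median over all of them was 0.047.

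A comparison within each array removes the common scaling. Stmn4 minus Stmn2, in log2(signal + 16) on the same array, lay between -3.85 and -2.93 in wild type and between -2.18 and -1.64 in KO, a shift of 1.44 with no overlap. Against Stmn1 the shift was 1.43 and against Stmn3 it was 1.54, again without overlap. Because Stmn1, Stmn2 and Stmn3 differed little between the genotypes, these shifts largely restate the Stmn4 difference on which the family was chosen. They are a description and no separate support for it. The distance between the probe sets within a genotype reflects their probes and has no meaning of its own, but its shift is free of the GAPDH signal. Among the 6 KO arrays the SD was 0.334 for Stmn4 alone, 0.202 for Stmn4 minus Stmn2, 0.284 for Stmn4 minus Stmn1 and 0.345 for Stmn4 minus Stmn3, and these spreads were not tested against each other.

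**Figure D2:**
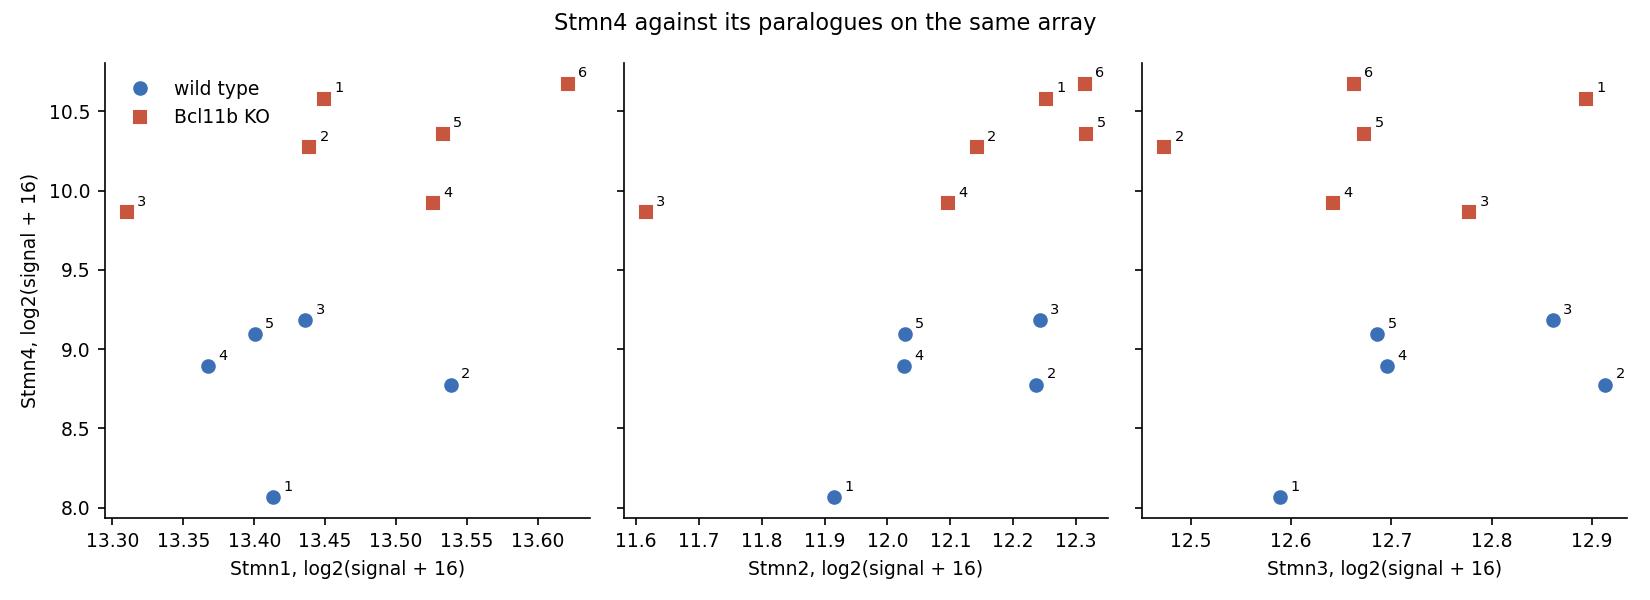
Stmn4 against Stmn1, Stmn2 and Stmn3 on the same array, all as log2(signal + 16) of the brightest probe set; circles are wild type and squares Bcl11b KO, with replicate numbers. The KO arrays lie above the wild type arrays in Stmn4 at every level of the paralogues, and KO 3 is lowest among KO arrays in Stmn1, Stmn2 and Stmn4.

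The arrays were next compared within each genotype, a spread that did not enter the choice of the family. After removal of the group means, Stmn2 and Stmn4 varied together over the 11 arrays, with Pearson's r = 0.67 (exact permutation within groups, two-sided, p = 0.00813; 0.0255 adjusted over 6 pairs) and Spearman's rho = 0.78 (p = 0.0144, exact permutation; 0.0861 adjusted). Stmn1 and Stmn2 had r = 0.80 (exact permutation, p = 0.00850; 0.0255 adjusted) and rho = 0.71 (exact permutation, p = 0.0333; 0.0998 adjusted). The other 4 pairs did not pass, with r between 0.064 and 0.34 and rho between 0.13 and 0.42 (exact permutation, adjusted p of 0.5001 to 0.865 for r). Neither relation held without the 2 arrays farthest from the median of the first gene, where r was 0.49 for Stmn2 and Stmn4 (exact permutation, p = 0.200) and 0.53 for Stmn1 and Stmn2 (exact permutation, p = 0.192). Leaving out single arrays also ended them: 0 of the 6 pairs passed without wild type 3 or without any 1 of KO 1, 2, 3, 5 and 6. Within the 6 KO arrays alone the coefficients were 0.80 and 0.84 (exact permutation, p = 0.0111 and 0.0306; 0.0667 and 0.0917 adjusted) with rho of 0.83 and 0.77 (exact permutation, both 0.272 adjusted). Without the 2 KO arrays farthest from the median of the first gene these were 0.96 for Stmn2 and Stmn4 and 0.14 for Stmn1 and Stmn2 (exact permutation over 4 arrays, p = 0.0833 and 0.750). No coefficient was computed over the 5 wild type arrays alone. The pairs that passed went from 2 to 5 when arrays were scaled on their medians and to 0 after quantile normalization or in males only.

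Technical measures moved with the same arrays. After removal of the group means, Stmn1 followed the spiked poly-A controls (r = 0.84, rho = 0.82; exact permutation, p = 0.00249 and 0.00880; 0.0299 and 0.106 adjusted over 12 relations), and without the 2 arrays farthest from its median r was 0.72 (exact permutation, p = 0.0493). Stmn2 had r = -0.76 and rho = -0.45 with the GAPDH 3'/5' ratio (exact permutation, p = 0.0211 and 0.210; 0.126 and 0.604 adjusted), which was -0.48 without its 2 farthest arrays (exact permutation, p = 0.203). KO 3, the lowest KO array in Stmn1, Stmn2 and Stmn4, had the highest ratio of all, 2.70. For Stmn4 the coefficients with array median, GAPDH 3'/5' ratio and poly-A controls were -0.28, -0.34 and -0.16 (rho -0.13, -0.42 and 0.091), and 0 of the 3 passed (exact permutation, p of 0.290 to 0.654 for r; 0.580 to 0.654 adjusted). The part of RNA integrity and of labelling in the covariation of Stmn1 and Stmn2 was not tested. Without KO 2 and KO 3, the KO arrays of highest ratio, the Stmn4 log2 difference was 1.58, and Stmn1, Stmn2 and Stmn3 had 0.10, 0.16 and -0.031.

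Probe sets of the same gene did not always vary together. With group means removed, the coefficient between the 2 probe sets was 0.77 for Stmn1 (rho 0.67; exact permutation, p = 0.0122 and 0.0465; 0.0365 and 0.140 adjusted over 3), 0.49 for Stmn2 (rho 0.56; exact permutation, p = 0.175 and 0.109; 0.175 and 0.164 adjusted) and 0.47 for Stmn3 (rho 0.49; exact permutation, p = 0.175 and 0.172, the same after adjustment). Without the 2 farthest arrays the coefficients were 0.58, 0.59 and 0.31, and that of Stmn1 no longer held (exact permutation, p = 0.114). Differences among arrays of 1 genotype that were seen on 1 probe set of Stmn2 or Stmn3 were therefore only in part shared by the other.

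The 5 genes whose deviations from the group means were most like those of Stmn4, over 11 arrays and 18205 probe sets with a mean signal of at least 100, were Anapc5 (r = 0.95), a subunit of the anaphase-promoting complex, Pfn2 (0.92), a profilin that binds actin, Nabp2 (0.92), which binds single-stranded DNA, Tbcb (0.90), a cofactor in the folding of tubulin, and Pcbp4 (0.89), which binds RNA. Of these 0 passed between the genotypes, with log2 differences from -0.16 to 0.16 (limma, adjusted p of 0.954 to 0.990). Of all probe sets 0.455% were called, and nothing is read from this count of 0. For Stmn2 the 5 were Necap1 (0.98), Rnf11 (0.97), Ywhae (0.97), Becn1 (0.97) and Cdv3 (0.97). A coefficient above 0.9 was reached by 3 probe sets for Stmn4 and by 289 for Stmn2. On this Stmn2 probe set KO 3 (3120.5) stood apart from the other KO arrays (4360.8 to 5084.9). A single array that far off weighs heavily in such coefficients, and the count without KO 3 was not taken. These coefficients are descriptions, selected as the highest of many.

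The genes of the proteins among which stathmins act were read out of the same fit. The pathway lists held 66 genes, of which 59 had a tested probe set and 0 passed in either direction (limma, adjusted p under 0.05), against 0.455% of all probe sets. A count of 0 among 59 is near that share, and nothing is read from it. At an unadjusted p under 0.05 there were 5 of the 59, where 6.92% of all probe sets reached that level. Their median log2 difference was 0.026, beside 0.047 over all probe sets, and they ran from -0.41 to 0.55.

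Among 11 tubulin isotypes the smallest p was that of Tubb4a (log2 difference 0.43 ± 0.22; limma, adjusted p = 0.786), and Tubb3, the isotype used to mark neurons, had 0.10 ± 0.18. Among 14 structural microtubule-associated proteins it was Tppp3, which promotes tubulin polymerization (0.34 ± 0.12; adjusted p = 0.382), among 9 depolymerases and severing enzymes Fign (0.55 ± 0.23; adjusted p = 0.623), and among 10 proteins of growing plus ends Clasp2 (-0.23 ± 0.13; adjusted p = 0.842). In the list of 12 tested kinases known to phosphorylate stathmins, which counts Cdk5r1, the activating subunit of Cdk5, Camk2a had the smallest p (-0.41 ± 0.17; limma, adjusted p = 0.583), and Mapk8, Mapk9 and Mapk10, the JNK kinases, had -0.13, 0.29 and 0.17. Rest, the repressor known to silence Stmn2 outside neurons, had -0.093 ± 0.14, and Tardbp, which protects the STMN2 transcript in human neurons, 0.26 ± 0.17. Stmnd1, a gene outside the family with a stathmin domain, had -0.15 ± 0.19 (limma, adjusted p = 0.976), with means of 863 ± 137 over the 5 wild type and 803 ± 260 over the 6 KO arrays (SD). Only Mapt, the axonal protein tau, came past the threshold in any alternative, when KO 2 and KO 3 were left out.

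**Figure D3:**
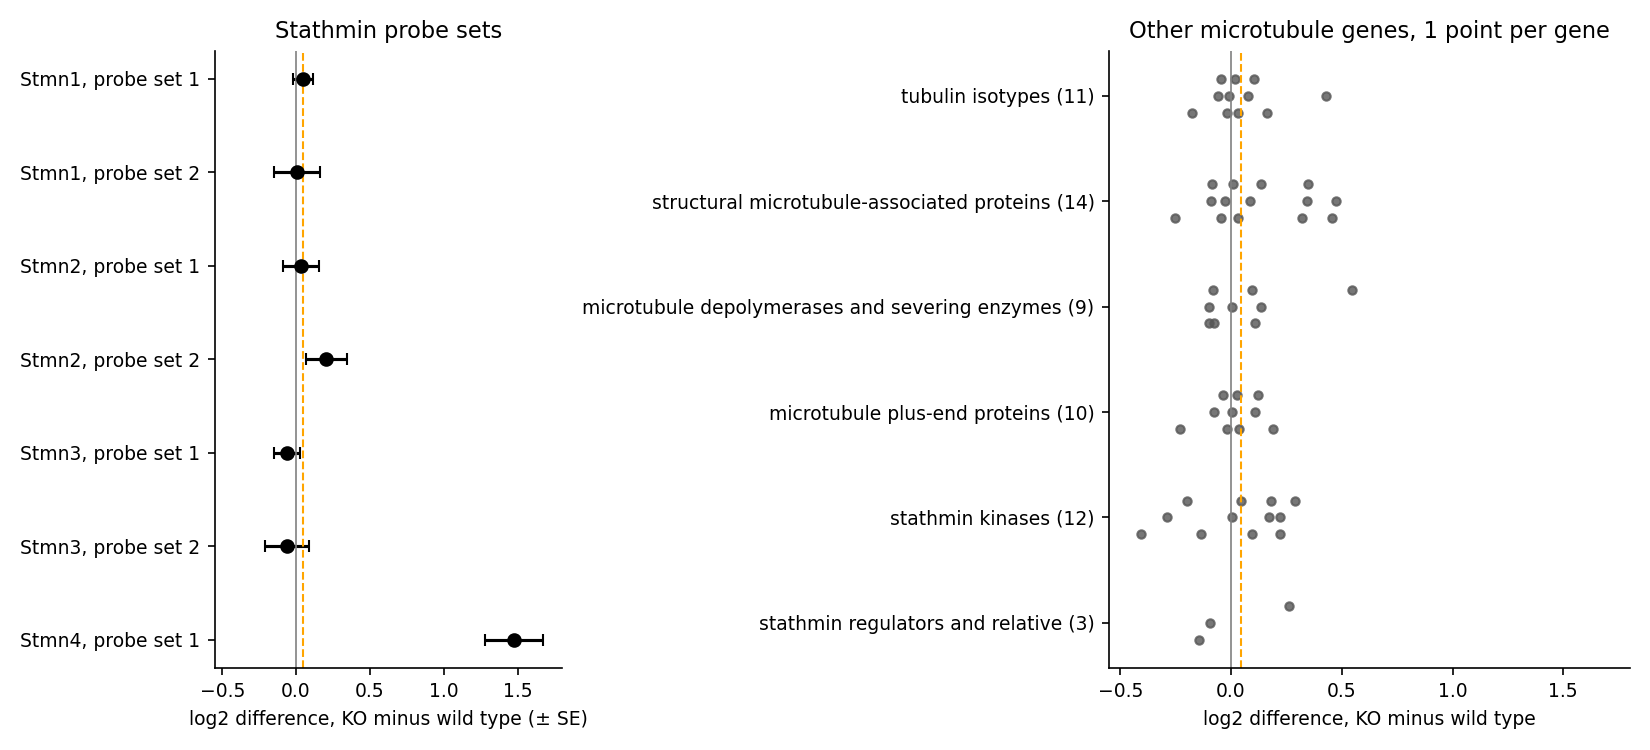
Log2 difference (KO minus wild type) of the 7 stathmin probe sets with SE from limma, left, and of the 59 tested genes of the pathway lists, right. These are microtubule genes, stathmin kinases, stathmin regulators and a relative, with the number of genes tested in each list. The orange dashed line is the median of all probe sets (0.047). Stmn4 lies at 1.48, the other stathmin probe sets between -0.062 and 0.20, and the genes of the pathway lists between -0.41 and 0.55.

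The 4 stathmin genes lie on 4 chromosomes. The nearest tested protein-coding genes, 2 on each side of each stathmin, were read out of the same fit. Of these 16 genes 0 passed, where 0.455% of all probe sets were called. A count of 0 among 16 is near that share, and nothing is read from it. Beside Stmn4 stood Ptk2b (0.14 ± 0.24), Trim35 (0.055 ± 0.097), Dpysl2 (0.11 ± 0.096) and Pnma2 (0.19 ± 0.20; limma, adjusted p of 0.958 to 0.985 for the 4). Dpysl2 encodes CRMP2, which also binds tubulin dimers in growing axons.

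Other cell types of the dissected tissue were read from marker lists, as summed signal per array. Of 16 immature OSN markers 0 were higher and 1, Trib3, was lower in KO on 1 of its 2 probe sets (limma, adjusted p = 0.0373). Of all probe sets 0.244% were higher and 0.211% lower. Trib3 went against most of its list, in which 13 of the 16 estimates were above 0, beside 60.4% of all probe sets. The sums overlapped (29125.5 to 37516.3 in wild type, 29064.4 to 37370 in KO). Of 15 mature OSN markers 6 were lower in KO, where 0.211% of all probe sets were lower. These were Cnga4, Gnal (on 1 of its 3 probe sets), Gng13 (on 1 of its 2), Stoml3, Umodl1 and Calb2. The sums of the list did not overlap (18851.3 to 24497.2 in wild type, 12734.5 to 17433.5 in KO). The other 9 did not pass, and among them Reep1, which helps to bring receptors to the cell surface, had an estimate above 0 (0.46 ± 0.12; limma, adjusted p = 0.156). Of 11 precursor markers 2, Neurog1 and Neurod1, were higher, each on 1 of 2 probe sets, where 0.244% of all probe sets were higher, and the sums overlapped (18621.1 to 26566 in wild type, 20633.7 to 29053.6 in KO). The cell cycle list, to which Stmn1 is related by its expression in dividing cells, had 0 of 14 called and overlapping sums. Over all probe sets 0.455% were called, so that nothing is read from this count of 0. The part of cell composition in the level of Stmn4 was not tested.

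Markers of neurons and cells from outside the epithelium were read in the same way. Over all probe sets 0.455% were called, so that a count of 0 in lists this short is near that share and nothing is read from it. Of 14 tested olfactory bulb markers 0 passed, but KO 5 had a sum of 7125.6, where the other KO arrays ran from 2169.7 to 3867 and wild type from 2332.7 to 3803.7. Its Gad1 signal was 829.6 and its Dlx1 signal 375.5, with wild type at most 114.5 and 36.2. Of the 14 log2 differences in the list 11 were above 0. Those of Cdhr1 (-0.37 ± 0.20), Eomes (-0.13 ± 0.41) and Gad2 (-0.050 ± 0.18) were below 0. The smallest p of the list was that of Tbr1, a transcription factor of bulb projection neurons, at 2.3 to 30.5 in wild type and 27.9 to 148 in KO (1.16 ± 0.31; limma, adjusted p = 0.150), and Neurod6 lay at 14.3 to 60.1 and 36.9 to 118 (0.88 ± 0.28; adjusted p = 0.330). Stmn4 on KO 5 was 1297.4, within the range of the other KO arrays, and without KO 5 and KO 6, the KO arrays above wild type in this sum, the log2 difference of Stmn4 was 1.36. Of 4 tested markers of peripheral sensory neurons 0 passed, and their sum was higher in KO without overlap (1796.4 to 2184.7 against 1293 to 1626.5), most of it from Prph, the intermediate filament peripherin, at 1370 against 915 on average (limma, adjusted p = 0.106). Of 6 erythroid markers 2 were higher, the embryonic globins Hbb-y and Hbb-bh1, against 0.244% of all probe sets (sums of 1334.9 to 1773.7 against 880.1 to 1330.3). The other 4 did not pass. Among them Gata1 (-0.24 ± 0.22) and Klf1 (-0.067 ± 0.19) had estimates below 0. Alas2 (0.17 ± 0.14), the largest part of the sums, read 722 in wild type and 802 in KO on average. Of 8 ensheathing glia markers 0 passed, with sums of 6311.7 to 15230.7 in KO and 5814 to 10069.6 in wild type. Their part in the level of Stmn4 was not tested.

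Every KO array lay above every wild type array in Stmn4. Its difference was thus bound to be above 0 in any subset with both genotypes, and only its size is described here. In KO the 2 females were at 914.5 and 1617.9, at either end of the range, and the 4 males lay between 951.8 and 1514.6, so that sex gave no order. In males alone the log2 difference was 1.48. Arrays fell into 5 with higher poly-A controls (wild type 1 and 2, KO 4 to 6) and 6 with lower ones, and the difference was 1.90 within the former and 1.18 within the latter, where 2 or 3 arrays a group allow no exact p under 0.1. Stmn2 had 0.17 and -0.095 within these sets, Stmn1 0.084 and -0.0019, and Stmn3 -0.092 and -0.032.

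**Figure D4:**
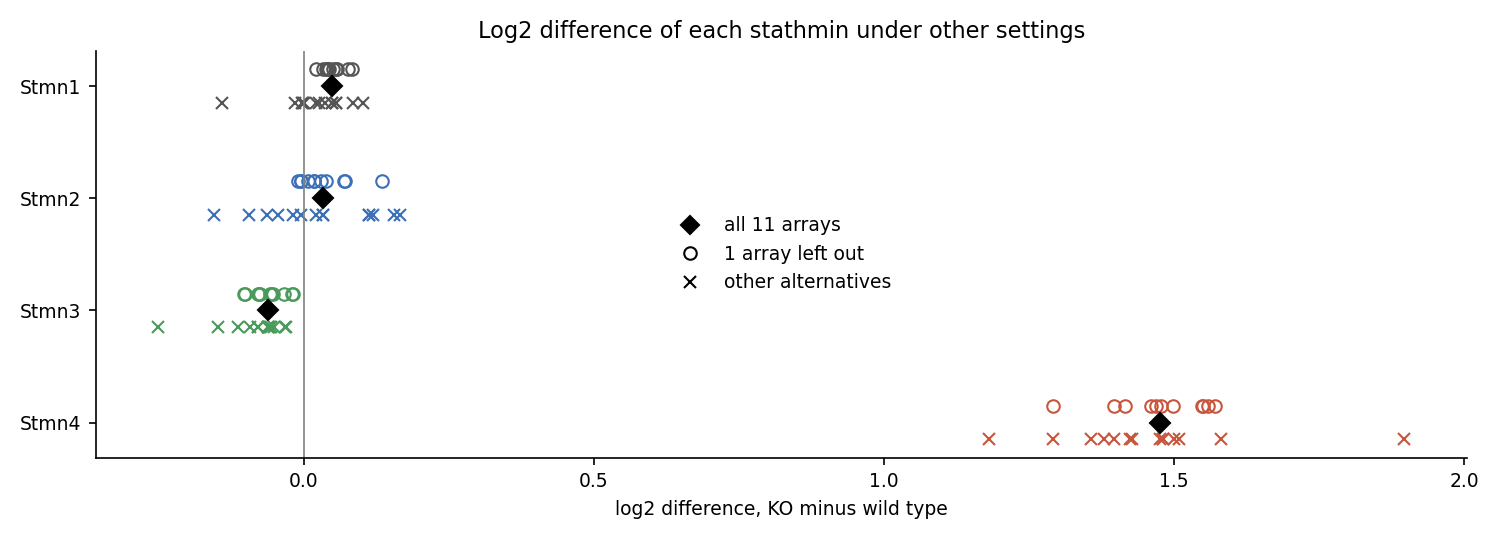
Log2 difference (KO minus wild type) of the brightest probe set of each stathmin with all 11 arrays (diamonds), with 1 array left out (circles) and under the other alternatives (crosses). Stmn4 stays between 1.18 and 1.90, and Stmn1, Stmn2 and Stmn3 stay between -0.25 and 0.17.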

How the data were processed

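RNA of 5 wild type and 6 Bcl11b KO MOE preparations was measured. Per the study's methods, labelled cRNA was made by 2 rounds of amplification, and the authors set every array to a common GAPDH signal by linear scaling in the GeneChip operating software (GCOS, version not given in the sources used here); the deposited values are linear intensities per probe set. Any difference in GAPDH itself shifts all other values of an array. The detection calls were left aside. Groups, replicate numbers and sex came from the labels.

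Of 45101 probe sets 64 were controls; 34958 had 1 gene symbol, 932 several and 9211 none. Entrez identifiers gave the same symbol in the RefSeq gene table (GRCm38.p6) for 7 of 7 stathmin probe sets; the table served for names and gene order only. Intensities were used as log2(signal + 16), which understates changes of dim probe sets. Probe sets with a mean signal under 20 were left out, and 33662 were fitted in limma 3.58.1 (R 4.3.3; lmFit, eBayes with trend, no covariate, Benjamini-Hochberg, threshold 0.05). A gene stood for its brightest tested probe set. Correlations were taken after removal of group means, with all 86400 orders of the arrays within groups. Both procedures were tested on simulated data. Correlations between whole arrays ran from 0.954 to 0.985, so no array was a copy of another. Precision is limited by how many arrays there are, and p-values measure the spread between these preparations.

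Members and gene lists were chosen with earlier results of these data known. Named by rule were the members, Bcl11b, in each pathway list the genes past the threshold or else the 1 of smallest p, Stmnd1, Rest, Tardbp, 5 genes most like Stmn4 and Stmn2, and marker genes past the threshold; other genes were chosen after their values were seen, the neighbours by position. Alternatives were other scalings (array median, quantile, hybridization controls), a pseudocount of 1 or 64, a minimum mean signal of 0 or 100, no trend, males only, sex, poly-A set and replicate number as terms, the mean of a gene's probe sets, and leaving out arrays; the 1 based on olfactory bulb markers was added after the data were seen. Sequences of the proteins are not used here.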

Additional observations from a re-analysis of the deposited data

Results flagged for a closer look

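The Stmn2 signal of KO 3 on the brighter probe set was 3120.5, apart from the other KO arrays (4360.8 to 5084.9). It was picked out by the gap to its nearest neighbour, 0.685 of the range of the 6 KO arrays on the log2 scale. On the dimmer Stmn2 probe set KO 3 read 1331.1, above KO 2. Of 14 combinations of probe set and genotype examined 1 stood out in this way, and chance gives about 1 in 20.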

How the results depend on the processing

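The log2 difference of Stmn4, on which the family was chosen, lay between 1.18 and 1.90 over 25 alternatives and between 1.29 and 1.57 with 1 array left out. With 1 array left out Stmn1 had 0.020 to 0.082, Stmn2 -0.011 to 0.13 and Stmn3 -0.10 to -0.019. Scaling on the hybridization controls, which took the median of all probe sets from 0.047 to -0.12, gave -0.14 for Stmn1 and -0.25 for Stmn3, a shift of every probe set in 1 direction; within the arrays of higher poly-A controls Stmn4 had 1.90, and the cause was not tested. Of all probe sets 153 were called (53.6% higher in KO), 293 after quantile normalization (41.0% higher), 319 on hybridization controls (18.2%), 282 without KO 2 and KO 3, 94 without KO 5 and KO 6, and 85 to 212 with 1 array left out; the lowest, 85 and 97, were without wild type 3 and 5. Genes of the pathway lists called went from 0 to 1 (Mapt) without KO 2 and KO 3. Stathmin pairs correlated within groups went from 2 to 5 on array medians and to 0 after quantile normalization, in males only, with sex as a term, without KO 2 and KO 3 or without KO 5 and KO 6, and 0 to 2 with 1 array left out (0 without wild type 3 or without any of KO 1, 2, 3, 5 and 6; 1 without wild type 1 or 2). With the replicate number as a block, in which KO 6 has no partner and adds nothing, 92 probe sets were called and the Stmn4 log2 difference was 1.40; same-numbered arrays deviated with coefficients of -0.28 to 0.0085 and 0 of 5 wild type arrays were most like the KO array of its own number, so the numbers pair nothing. The block was not run for the correlations, and the filters and the trend do not enter them or the log2 differences.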
